A study of Saccharomyces cerevisiae with 8 samples.

Results

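ZRT1, ADH4, VEL1, MNT2, ZRT2, ZRT3, ZAP1 and ZPS1 are 8 zinc-responsive genes of budding yeast, taken here by gene symbol from the 6002 nuclear protein-coding open reading frames (ORFs) of the R64 annotation. Peak lists, 4 in all, from chromatin immunoprecipitation of RNA polymerase II (RNAPII) were examined, 2 from cells with Tfg1-K60,61R-HA and 2 from cells with Tfg1-HA. Tfg1 is the large subunit of TFIIF, a general transcription factor that accompanies RNAPII, and the K60,61R allele replaces 2 lysines by arginine, at positions 60 and 61, where SUMO, a small protein modifier, is attached. Both strains are W303a derivatives whose native TFG1 locus carries an HA tag, and both were grown in synthetic complete medium and collected while dividing actively at 30 °C, without a zinc treatment. Tfg1 of the K60,61R strain has a further, unplanned amino acid substitution, whose effect and that of the lysine changes cannot be told apart. No library is labelled as coming from zinc-starved cells, and the labels give no measure of the zinc state of the cells. The lists therefore show where RNAPII was on these genes but not whether it responded to zinc.

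Zinc homeostasis in yeast is governed by Zap1, an activator that senses zinc and is most active when zinc is scarce. Zap1 binds zinc-responsive elements, short palindromes upstream of its target genes, and raises transcription of zinc importers, of a transporter that releases the zinc stored in the vacuole, and of its own gene. RNAPII immunoprecipitation records polymerase along the transcribed unit, so a transcribed yeast gene is typically covered from near its start to a little past its stop codon.

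The genes were selected on results of these same lists, in particular the fold of the ZRT1 peak, which ranked second in 1 of them, so the levels below are descriptions, with no test. Each list comes from 1 library, and 2 lists against 2 could not give an exact permutation p under 0.333 in any case. An ORF counted as occupied if peaks of a list lay over 50% or more of its length. The fold of an ORF is the enrichment over input that the authors' peak caller gave for the region, averaged over that region. The fold was turned into a fold percentile, the rank of the ORF among those occupied in the same list (highest rank near 100). This scale does not remove the difference in list length, since a list with fewer weak ORFs can place a shared ORF lower. Values of a pair of lists are given in the order replicate 1, replicate 2.

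The Tfg1-K60,61R-HA libraries held 1098 and 894 peaks and the Tfg1-HA libraries 1257 and 1171. Of all ORFs, 16.9% and 12.7% were occupied in the Tfg1-K60,61R-HA libraries, against 19.9% and 17.3% in the Tfg1-HA libraries. The depth that each library reached cannot be read from peak lists, which keep no read counts. The genotype of 2 lists is in doubt. The peaks in the list labelled Tfg1-K60,61R-HA replicate 1 are named in upper case, as the wild-type gene would be, whereas those in the list labelled Tfg1-HA replicate 2 are in lower case, as a mutant allele would be. The labels were kept, and every difference is one between lists as labelled. Label and names match in Tfg1-K60,61R-HA replicate 2, and also in Tfg1-HA replicate 1, and differences between these alone are given where they moved by more than the spread between replicates.

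The zinc-responsive element is shown first because it is what most of these promoters share outside the peak data. The search used ACCTTNAAGGT, a palindrome that reads the same on both strands, allowing 1 mismatch outside the middle base. From 250 bases before to 50 after the start codon, ZRT1, ZRT3 and ZAP1 held it, 3 of 8 members, against 1.18% of the 6002 windows of all ORFs. Within 600 bases before the start codon, a window chosen after the first had been seen, 7 of 8 members held it (all but VEL1), against 2.17% of all ORFs. The copies are printed on the coding strand of each gene (that of ADH4 for the copy shared with MNT2), with the element in capitals and 10 flanking bases on each side, from the RefSeq R64 sequence.
ZRT1 distal: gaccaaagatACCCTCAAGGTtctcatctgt
ZRT1 proximal: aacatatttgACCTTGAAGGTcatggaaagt
ZRT2 distal: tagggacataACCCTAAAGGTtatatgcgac
ZRT2 proximal: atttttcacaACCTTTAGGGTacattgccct
ZRT3: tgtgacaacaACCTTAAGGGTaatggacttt
ZAP1: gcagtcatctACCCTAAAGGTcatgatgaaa
ADH4 and MNT2: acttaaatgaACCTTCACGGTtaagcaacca
ZPS1 distal: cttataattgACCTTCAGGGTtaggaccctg
ZPS1 proximal: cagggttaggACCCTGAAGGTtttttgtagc

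The proximal element of ZRT1, at chrVII:20774-20784, is the exact palindrome, which 5 of the 6002 shorter windows held. The other copies printed above have 1 mismatch. Of 17 other Zap1 targets, described below, 3 held the element with up to 1 mismatch in the shorter window and 5 within 600 bases. ZRG17 and MCD4 are among these and held the exact palindrome, yet ZRG17 was occupied in no list and MCD4 only in the replicate 1 lists. ADH4 and MNT2 are divergent neighbours and share 1 copy, at chrVII:14641-14651, which begins 518 bases before the start codon of ADH4 and 494 bases before that of MNT2. No match in VEL1 says only that these letters are not in its window. The stretch of the ZRT1 promoter that holds both of its copies (R64 chrVII:20628-20877, plus strand, elements in capitals) is shown because the left edge of the ZRT1 peak lies here in 1 list, as described below.
ZRT1 promoter: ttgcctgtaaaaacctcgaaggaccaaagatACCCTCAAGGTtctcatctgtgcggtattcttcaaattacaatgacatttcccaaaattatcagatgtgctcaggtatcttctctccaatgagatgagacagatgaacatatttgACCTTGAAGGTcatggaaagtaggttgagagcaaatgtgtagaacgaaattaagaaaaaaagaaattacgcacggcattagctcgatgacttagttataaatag

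All 8 members were occupied in all 4 lists, where 10.8% of all ORFs were. ZRT1, ZRT2, ZRT3, ZAP1, ADH4 and ZPS1 were covered over 100% of their length in every list. VEL1 and MNT2 were covered over 100% in both replicate 1 lists and in part in both replicate 2 lists. As all were occupied everywhere, no member separated Tfg1-K60,61R-HA from Tfg1-HA by occupancy. By fold percentile, ZRT1 alone of the 8 was higher in both Tfg1-K60,61R-HA libraries than in both Tfg1-HA libraries, a pattern that 9.22% of the 651 ORFs occupied in all 4 lists had. None of the 8 was lower in both Tfg1-K60,61R-HA libraries, where 51.8% of those ORFs were. Both Tfg1-K60,61R-HA lists held fewer occupied ORFs than either Tfg1-HA list, which can by itself lower the percentile of a shared ORF. Both counts also rest on labels that are in doubt for 2 of the lists. With those 2 exchanged, so that the lists with lower-case names stand for Tfg1-K60,61R-HA, 5 of the 8 (ZRT3, ZAP1, ZPS1, VEL1 and MNT2) were lower in both, where 23.0% of the 651 ORFs were, and none was higher in both, where 3.23% were. ZRT1 then had fold percentiles of 99.3 and 99.0, against 99.0 and 99.8, and overlapped. VEL1 and MNT2 share a peak in every list and count as 1 region. All these counts are descriptions beside the background, since the members were chosen with the peak ranks known.

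The order of the members by fold percentile was much the same in the 4 lists. ZRT1 was first everywhere, ADH4 next (level with VEL1 and MNT2 where the 3 shared a peak), and ZPS1 after them. The ranges of these over the lists did not overlap, at 99.0 to 99.8 for ZRT1, 92.6 to 96.9 for ADH4 and 84.0 to 89.4 for ZPS1. The place of ZPS1 is that of a peak shared with the neighbouring HPF1 in every list, and that of ADH4 is a shared one in the replicate 1 lists. ZRT2, ZAP1 and ZRT3 followed with ranges of 54.5 to 76.2, 54.4 to 77.3 and 44.9 to 61.9, which overlapped each other. ZRT3 was the lowest of these 3 in every list, whereas ZRT2 and ZAP1 changed places between lists. VEL1 and MNT2 had no fixed place, ranging over 77.6 percentile points.

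**Figure D1:**
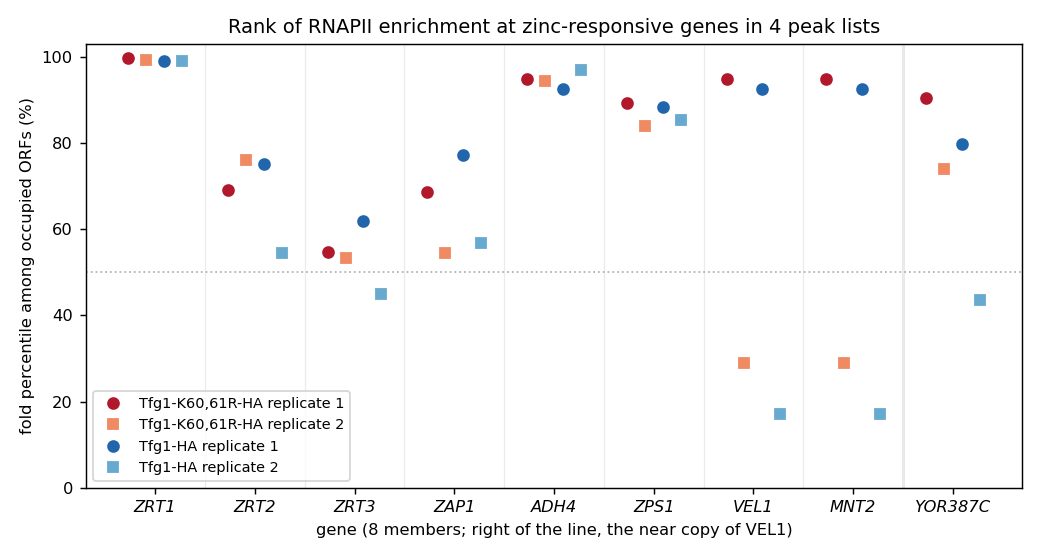
Fold percentile (y axis, percent, rank among the ORFs occupied in the same list) of the 8 zinc-responsive genes and of YOR387C, the near copy of VEL1, 1 point per peak list, with no error bars because each list is 1 library. ZRT1 ranged from 99.0 to 99.8 over the 4 lists, while VEL1 and MNT2 were above 92 in the replicate 1 lists (circles) and at 28.9 and 17.2 in the replicate 2 lists (squares).

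ZRT1 encodes the high-affinity zinc importer of the plasma membrane, the main route of zinc uptake in zinc-limited cells. The ORF (YGL255W, R64 chrVII:20978-22108, plus strand, 1131 bp) lies 21.0 kb from the left end of the chromosome. Its fold was 19.6 and 10.9 in the Tfg1-K60,61R-HA libraries, against 11.7 and 10.5 in the Tfg1-HA libraries. One list thus stood apart, Tfg1-K60,61R-HA replicate 1, and the groups overlapped. As a fold percentile ZRT1 reached 99.8 and 99.3 in the Tfg1-K60,61R-HA libraries, against 99.0 in each Tfg1-HA library (99.5 ± 0.336 against 99.0 ± 0.0277, SD, n = 2 each). The groups did not overlap on this scale, by 0.544 percentile points between means. Among occupied ORFs ZRT1 ranked 3 and 6 in the Tfg1-K60,61R-HA libraries and 13 and 11 in the Tfg1-HA libraries, so that it stood near the top throughout.

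The high fold of ZRT1 in Tfg1-K60,61R-HA replicate 1 went with a narrow peak. The ZRT1 peak was 1940 and 4285 bp wide in the Tfg1-K60,61R-HA libraries and 4186 and 4157 bp wide in the Tfg1-HA libraries. The right edge hardly moved, at 499 and 489 bp past the stop codon in the Tfg1-K60,61R-HA libraries and 479 and 468 bp past it in the Tfg1-HA libraries. The left edge was 310 and 2665 bp before the start codon in the Tfg1-K60,61R-HA libraries, against 2576 and 2558 bp in the Tfg1-HA libraries. The other 3 lists thus extended the peak about as far into the intergenic region, and 1 ended it inside the distal zinc-responsive element printed above, so that the proximal element was under the ZRT1 peak in 4 lists and the distal one wholly in 3. Tfg1-K60,61R-HA replicate 1 instead had a separate weak peak upstream, at chrVII:18470-19256, with a fold of 1.19. The fold that the caller gives is an average over the region, so it also depends on where the edges were set.

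As a second measure, the fold above 1 was multiplied by the width of the peak (fold × kb). This measure was added after the widths had been seen. The sum still stops at the called edges, so it is not free of them. In Tfg1-K60,61R-HA replicate 1 it leaves out the separate weak peak upstream, whose own sum was 0.147 fold × kb. The sum of the ZRT1 peak was 36.1 and 42.6 fold × kb in the Tfg1-K60,61R-HA libraries, against 44.9 and 39.5 in the Tfg1-HA libraries. The list with the highest mean fold had the lowest sum, and the groups overlapped. By this sum the ZRT1 peak ranked 10 and 2 among the peaks of the Tfg1-K60,61R-HA libraries and 4 in each Tfg1-HA library, whereas by mean fold it ranked 2 and 4 in the Tfg1-K60,61R-HA libraries and 8 and 7 in the Tfg1-HA libraries. The order of the genotypes at ZRT1 therefore depended on whether the peak was averaged or summed.

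**Figure D2:**
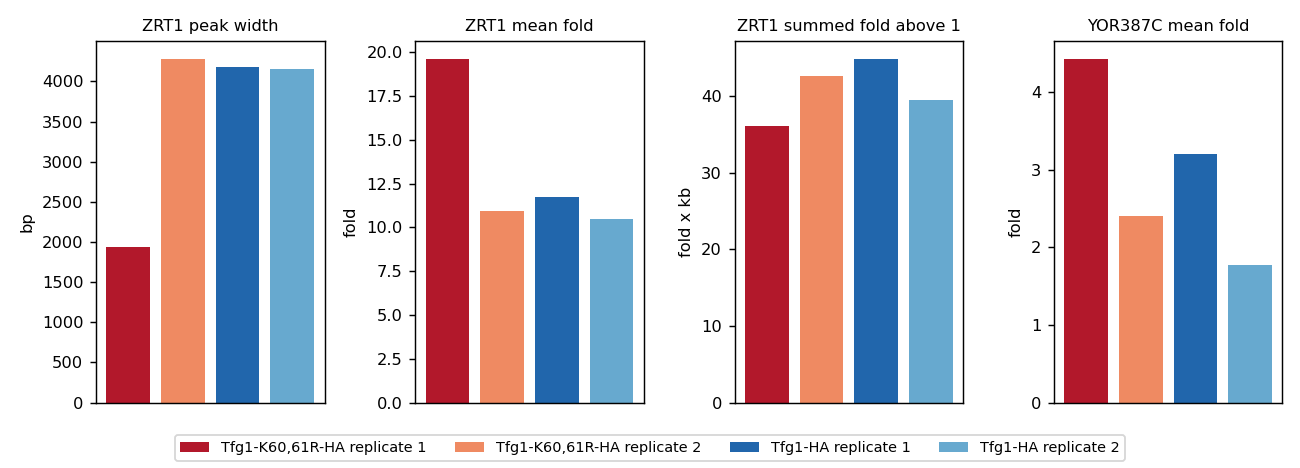
Bars give, for each of the 4 peak lists, the width of the ZRT1 peak (bp), its mean fold, its fold above 1 summed over the peak (fold × kb) and, at the right, the mean fold at YOR387C; each bar is 1 library, without error. Tfg1-K60,61R-HA replicate 1 had the narrowest ZRT1 peak (1940 bp) with the highest mean fold (19.6) and the lowest sum (36.1).

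Upstream of ZRT1 on the same chromosome arm lie VEL1, MNT2 and ADH4, which the lists divided in 2 ways. ADH4 (YGL256W, chrVII:15159-16307, plus strand) encodes an alcohol dehydrogenase that is induced in low zinc. MNT2 (YGL257C, chrVII:12481-14157, minus strand) encodes a mannosyltransferase of the Golgi that acts on O-linked glycans. VEL1 (YGL258W, chrVII:11110-11730, plus strand) encodes a protein of unknown function whose transcript is strongly raised in zinc-deficient cells. In both replicate 1 lists 1 peak spanned all 3 genes, 5813 bp wide in Tfg1-K60,61R-HA and 5734 bp wide in Tfg1-HA. In both replicate 2 lists there were 2 peaks instead, 1 on VEL1 and most of MNT2 (2784 bp in Tfg1-K60,61R-HA, 2811 bp in Tfg1-HA) and 1 on ADH4 (1820 bp in Tfg1-K60,61R-HA, 1863 bp in Tfg1-HA).

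The fold of ADH4 was 6.76 and 6.28 in the Tfg1-K60,61R-HA libraries, against 5.48 and 7.84 in the Tfg1-HA libraries. The Tfg1-K60,61R-HA values lay inside the range of the Tfg1-HA values, and the fold percentiles did the same, at 94.8 and 94.4 against 92.6 and 96.9. ADH4 had a peak of its own in the replicate 2 lists only, at 6.28 in Tfg1-K60,61R-HA and 7.84 in Tfg1-HA. For VEL1 and MNT2, which had the same fold in each list, it was 6.76 and 1.52 in the Tfg1-K60,61R-HA libraries and 5.48 and 1.39 in the Tfg1-HA libraries. Both replicate 1 lists were high and both replicate 2 lists low, so the lists of each genotype lay far apart and the genotypes overlapped. In the replicate 1 lists this fold is the average of a region that ADH4 shares, and the level on any 1 of the 3 genes cannot be read from it.

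VEL1 was covered over 100% and 91.3% of its length in the Tfg1-K60,61R-HA libraries and over 100% and 93.4% in the Tfg1-HA libraries. MNT2 was covered over 100% and 87.5% in the Tfg1-K60,61R-HA libraries and over 100% and 88.3% in the Tfg1-HA libraries. The uncovered stretch was the same in kind in both replicate 2 lists, the start of VEL1 and the start of MNT2. Between MNT2 and ADH4 the replicate 2 lists left a gap of 1030 bp in Tfg1-K60,61R-HA and of 982 bp in Tfg1-HA. It took in most of the 1001 bp divergent promoter region, of which 18.1% was covered in Tfg1-K60,61R-HA replicate 2 and 21.5% in Tfg1-HA replicate 2, and all of it was covered in both replicate 1 lists. The element that ADH4 and MNT2 share lay inside this gap in the replicate 2 lists and under the wide peak in the replicate 1 lists.

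Summed over the peaks that touch the stretch from VEL1 to ADH4, the fold above 1 was 33.5 and 11.1 fold × kb in the Tfg1-K60,61R-HA libraries, against 25.7 and 13.9 in the Tfg1-HA libraries. These peaks were 5813 and 4604 bp long in all in the Tfg1-K60,61R-HA libraries, and 5734 and 4674 bp in the Tfg1-HA libraries. The replicate 1 lists were higher by this sum too, and the genotypes overlapped. The division of the locus followed the replicate number, and with it the upper or lower case of the peak names, not the labelled genotype. Whether a batch or a mislabelled pair of lists has a part in it was not tested. Between the lists whose label and names match, Tfg1-K60,61R-HA replicate 2 had the divided form and Tfg1-HA replicate 1 the joined one, which put the fold percentile of VEL1 and MNT2 at 28.9 in the first and 92.6 in the second, a difference of -63.7 points.

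From the start of VEL1 to the end of ZRT1, a window of 10999 bp, peaks covered 8001 and 8400 bp in the Tfg1-K60,61R-HA libraries and 9415 and 8363 bp in the Tfg1-HA libraries. The groups overlapped, with a difference of -688.5 bp between means. Most of the uncovered length lay in the 4670 bp between ADH4 and ZRT1, of which 35.8% and 67.6% was covered in the Tfg1-K60,61R-HA libraries, against 66.1% and 65.5% in the Tfg1-HA libraries. The peaks on ADH4 and those upstream of ZRT1 stayed apart in all 4 lists, by 1587 and 1515 bp in the Tfg1-K60,61R-HA libraries and 1584 and 1613 bp in the Tfg1-HA libraries. The gaps overlapped between the genotypes.

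The zinc-responsive genes were the outermost ones with peaks on this arm. The 6 ORFs between VEL1 and the chromosome end (COS12, YGL262W, PAU11, YGL260W, YPS5 and YGL258W-A) had no covered base in any list. On the other side of ZRT1, FZF1, which encodes a sulfite resistance regulator, was covered over 33.8% and 32.7% in the Tfg1-K60,61R-HA libraries and 31.6% and 30.3% in the Tfg1-HA libraries, all of it from the trailing edge of the ZRT1 peak. HXK2, the hexokinase gene beyond it, was covered over 100% in every list, at a fold of 2.52 and 2.15 in the Tfg1-K60,61R-HA libraries and 2.60 and 2.38 in the Tfg1-HA libraries. HXK2 thus stood far below ZRT1 in all lists.

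**Figure D3:**
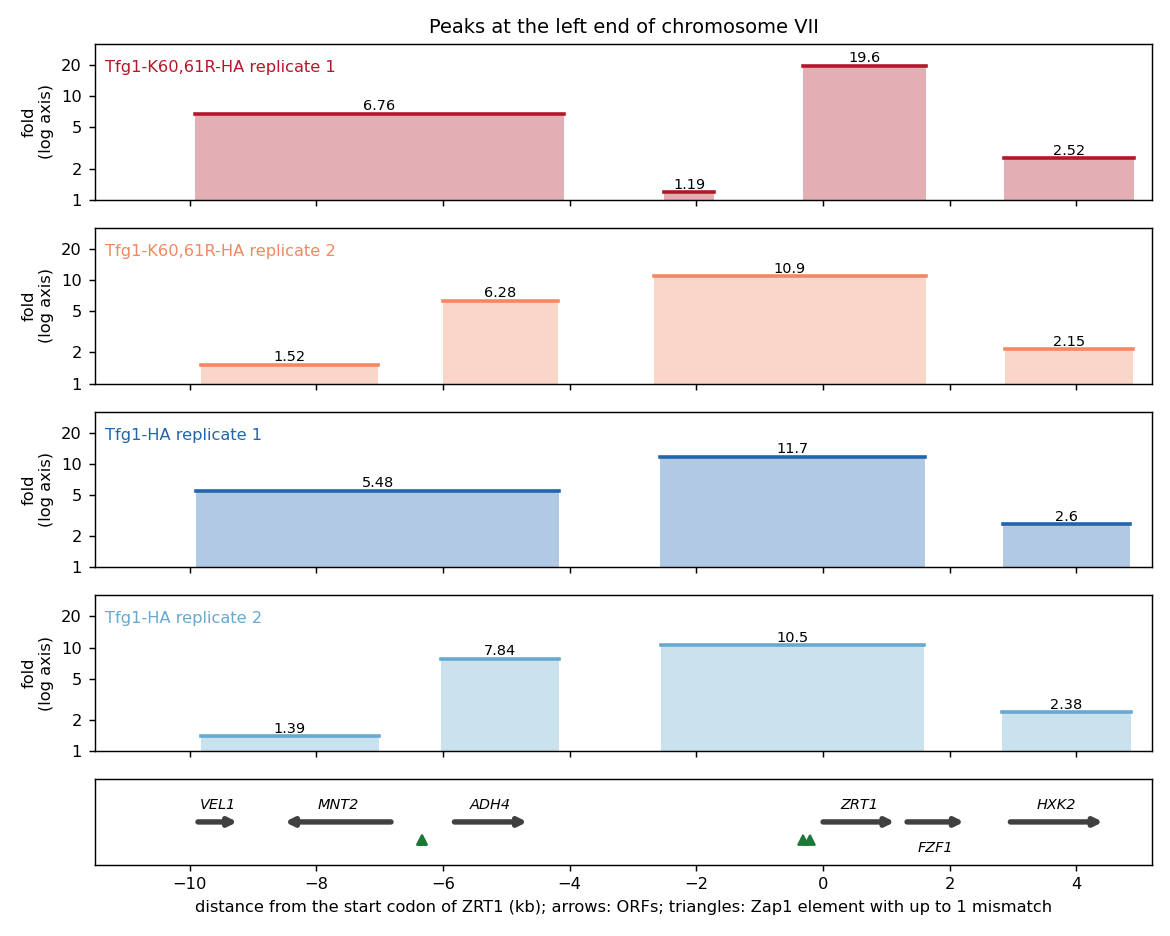
Peaks at the left end of chromosome VII in each of the 4 lists, as distance from the start codon of ZRT1 (x axis, kb) against the fold of each peak (y axis, log scale, fold printed above each peak), with ORFs as arrows in the direction of transcription and zinc-responsive elements as triangles. VEL1, MNT2 and ADH4 lie under 1 peak in the replicate 1 lists and under 2 in the replicate 2 lists, and the ZRT1 peak is shorter upstream in Tfg1-K60,61R-HA replicate 1 than in the other lists.

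VEL1 has a near copy on another chromosome, YOR387C (chrXV:1069621-1070241, minus strand), itself on the list of other Zap1 targets. Reads that do not span a difference between such copies can be placed on either. The coding sequences, 621 bases each, were identical at 574 positions (92.4%), and the longest run without a difference was 62 bases. By the study's methods the paired reads were longer than that as sequenced, but trimming could leave shorter ones. How reads over the copies were placed was not tested. The first 120 coding bases are printed to show how the differences are spread, with the 10 differing bases in capitals (R64, coding strand).
VEL1: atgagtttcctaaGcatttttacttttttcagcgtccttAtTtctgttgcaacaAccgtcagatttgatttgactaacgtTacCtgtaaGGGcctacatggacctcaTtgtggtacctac
YOR387C: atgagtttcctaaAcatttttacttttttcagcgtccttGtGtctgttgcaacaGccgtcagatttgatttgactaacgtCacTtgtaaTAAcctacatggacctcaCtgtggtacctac

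YOR387C lay alone under its peak in every list, so its fold was not averaged with a neighbour. Its fold was 4.43 and 2.41 in the Tfg1-K60,61R-HA libraries, against 3.20 and 1.77 in the Tfg1-HA libraries. The replicate 1 list was the higher one in each genotype, and the genotypes overlapped. The fold given to VEL1 had the same order, but in the replicate 1 lists it is that of a peak shared with ADH4. Its fold percentile was 90.4 and 74.1 in the Tfg1-K60,61R-HA libraries and 79.8 and 43.6 in the Tfg1-HA libraries. Within a replicate number the Tfg1-K60,61R-HA library was the higher one both times, but Tfg1-K60,61R-HA replicate 2 did not reach Tfg1-HA replicate 1.

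ZRT2 encodes the low-affinity zinc importer, a relative of ZRT1 with which its protein was identical at 36.1% of aligned positions. The ORF (YLR130C, chrXII:402794-404062, minus strand) had a fold of 2.44 and 2.49 in the Tfg1-K60,61R-HA libraries, against 2.87 and 2.07 in the Tfg1-HA libraries. The Tfg1-K60,61R-HA values lay between the Tfg1-HA values. The fold percentiles were 69.2 and 76.2 in the Tfg1-K60,61R-HA libraries and 75.2 and 54.5 in the Tfg1-HA libraries, so these overlapped too. The ZRT2 peak began 1147 and 1021 bp before the start codon in the Tfg1-K60,61R-HA libraries and 1125 and 1029 bp before it in the Tfg1-HA libraries, and both of its zinc-responsive elements lay under the peak in all 4 lists.

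ZRT3 encodes the transporter that carries zinc out of the vacuole, and its ORF (YKL175W, chrXI:118793-120304, plus strand) had a fold of 1.94 and 1.86 in the Tfg1-K60,61R-HA libraries, against 2.25 and 1.81 in the Tfg1-HA libraries. Its fold percentile was 54.7 and 53.2 in the Tfg1-K60,61R-HA libraries and 61.9 and 44.9 in the Tfg1-HA libraries. Both measures overlapped, and ZRT3 stood near the middle of the occupied ORFs. Its peak began close to the start codon, 36 and 19 bp before it in the Tfg1-K60,61R-HA libraries and 66 and 16 bp before it in the Tfg1-HA libraries. The element of ZRT3, which begins 155 bases before the start codon, was therefore outside the peak in every list.

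ZAP1, the gene of the activator itself (YJL056C, chrX:330431-333073, minus strand), had a fold of 2.40 and 1.87 in the Tfg1-K60,61R-HA libraries, against 2.97 and 2.16 in the Tfg1-HA libraries. Its fold percentile was 68.7 and 54.4 in the Tfg1-K60,61R-HA libraries and 77.3 and 56.7 in the Tfg1-HA libraries. Within each replicate number the Tfg1-K60,61R-HA library was the lower one, but the genotypes overlapped. Between the 2 lists whose label and names match the difference was -22.9 points, and it was -5.45 points between the means of all lists. The peak began 45 and 50 bp before the start codon in the Tfg1-K60,61R-HA libraries and 716 and 64 bp before it in the Tfg1-HA libraries. The long one, in Tfg1-HA replicate 1, ran on over 58.7% of the neighbouring LOG1 and was the only one to take in the element of ZAP1.

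ZPS1 (YOL154W, chrXV:34658-35407, plus strand), which encodes a putative cell-wall protein, had a fold of 4.20 and 3.14 in the Tfg1-K60,61R-HA libraries, against 4.38 and 3.94 in the Tfg1-HA libraries. The fold percentiles were 89.4 and 84.0 in the Tfg1-K60,61R-HA libraries and 88.4 and 85.4 in the Tfg1-HA libraries. The genotypes overlapped on both measures. Between the 2 lists whose label and names match, the fold percentile differed by -4.40 points, and it differed by -0.220 points between the means of all lists. The fold is that of a peak 7592 and 7582 bp wide in the Tfg1-K60,61R-HA libraries and 8988 and 7536 bp wide in the Tfg1-HA libraries, which also covered all of HPF1, the gene of a cell-wall mannoprotein, in every list. How much of it lies on ZPS1 cannot be read from the lists, and the same holds for its pair of elements, which were under this peak in all 4 lists.

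Trailing edges were read for 6 members, chosen because no further ORF was mostly covered past them, which limits their trailing reach. VEL1 and MNT2, whose peaks ran on over a neighbour past the stop codon, were left out. ZRT1, ZRT2, ZRT3, ZAP1, ADH4 and ZPS1 are each the last ORF with at least 50% of its length under their peak, in the direction of their own transcription, and the peak ran past the stop codon by a median of 479 and 475.5 bp in the Tfg1-K60,61R-HA libraries, against 466.5 and 429.5 bp in the Tfg1-HA libraries. The lowest and highest of these were 402 and 575 bp in Tfg1-K60,61R-HA replicate 1, 386 and 523 bp in Tfg1-K60,61R-HA replicate 2, 408 and 540 bp in Tfg1-HA replicate 1, and 346 and 499 bp in Tfg1-HA replicate 2. For ORFs that were alone under a peak and wholly covered, the median over all genes was 385 and 374.5 bp in the Tfg1-K60,61R-HA libraries and 360 and 373.5 bp in the Tfg1-HA libraries. The medians differed little between genotypes beside the range over genes. Before the start codon the choice sets no such limit, and the reach of the 6 members spanned 19 to 6370 bp in Tfg1-K60,61R-HA replicate 2 alone. For all ORFs alone under a peak in that list, the quartiles were 51.5 and 320.25 bp before the start codon. Past the stop codon they were 310 and 489.25 bp. The 2 edges of the members can therefore not be compared as a trait of these genes.

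ZRT1 was set beside the other 650 ORFs that were occupied in all 4 lists and lay outside its peak, by the Euclidean distance of the fold percentile over the 4 lists. The nearest were ENO2 (0.781 percentile points) and ENO1 (0.811), which encode enolases, PGK1 (1.26), the gene of phosphoglycerate kinase, SHU2 (1.44), a gene of homologous recombination, and SED1 (1.49), the gene of a cell-wall protein. SHU2 and SED1 are neighbours on chromosome IV and lie under 1 peak in every list, which covered SED1 over 100% and SHU2 over 51.6% to 68.5% of its length, so the fold given to SHU2 is mostly that of a region it shares with SED1. The distance uses only 4 values per gene, all near the top of the scale, so it says that these genes ranked as high as ZRT1 and no more.

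The list of 17 other Zap1 targets gave the rest of the pathway. Of these, 13 and 7 were occupied in the Tfg1-K60,61R-HA libraries, against 12 and 11 in the Tfg1-HA libraries. As shares these are 76.5% and 41.2% in the Tfg1-K60,61R-HA libraries and 70.6% and 64.7% in the Tfg1-HA libraries, each above the share of all ORFs given at the start. The 17 were listed with earlier results of these data known, so their counts and shares are descriptions beside the background and show no enrichment of the pathway. In all, 13 were occupied in at least 1 list, where 22.8% of all ORFs were, and 6 in all 4. Those 6 were ZRC1 and FET4, which encode a vacuolar zinc transporter and a low-affinity iron transporter, DPP1, the gene of a phosphatase of membrane lipids, TSA1, the gene of a peroxiredoxin, YJL132W and YOR387C. EKI1, ZRG17, ZRG8 and RAD27 were not occupied in any list.

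Of the 17, 5 were missing from Tfg1-K60,61R-HA replicate 2 alone, the shortest list, beside the 6 occupied in all 4. Over all ORFs these counts were 174 (2.90%) and 651. Most ORFs were occupied in no list and could not show the pattern, so the 2.90% is a low base. The 5 were PIS1, a gene of phospholipid synthesis, IZH1, IZH2 and IZH4, members of a family linked to zinc and membrane homeostasis, and NRG2, the gene of a repressor. IZH1, IZH2, IZH4 and NRG2 had no covered base in that list. NRG2 had a fold of 2.99 in Tfg1-K60,61R-HA replicate 1, against 3.39 and 1.34 in the Tfg1-HA libraries, so it was weak in both replicate 2 lists. IZH2 had a fold percentile of 66.8 in Tfg1-K60,61R-HA replicate 1, against 65.5 and 47.7 in the Tfg1-HA libraries. All 8 members were occupied in the short list, but they were chosen with the peak ranks of these lists known, so this is no contrast between the sets. FET4 was fully covered everywhere, at a fold of 2.60 and 1.48 in the Tfg1-K60,61R-HA libraries and 2.21 and 1.68 in the Tfg1-HA libraries, with the replicate 1 list the higher one in each genotype.

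CTT1, the gene of the cytosolic catalase, was the only one of the 17 that was occupied in both Tfg1-K60,61R-HA libraries and in neither Tfg1-HA library, a pattern that 0.150% of all ORFs had. It was covered over 99.8% and 97.8% of its length in the Tfg1-K60,61R-HA libraries, against 24.5% and 0% in the Tfg1-HA libraries. The peaks were weak, with a fold of 1.32 in each Tfg1-K60,61R-HA library, and with the 2 doubted lists exchanged CTT1 was occupied in 1 list of each genotype. None of the 17 was occupied in both Tfg1-HA libraries only, where 1.73% of all ORFs were. MCD4, a gene of GPI anchor synthesis, was occupied in Tfg1-K60,61R-HA replicate 1 (53.5% covered) and Tfg1-HA replicate 1 (100% covered) and not in the replicate 2 lists. Its fold was 1.21 in Tfg1-K60,61R-HA replicate 1 and 4.59 in Tfg1-HA replicate 1. In the latter its peak reached 5298 bp before the start codon, so the level on MCD4 alone cannot be read from it.

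**Figure D4:**
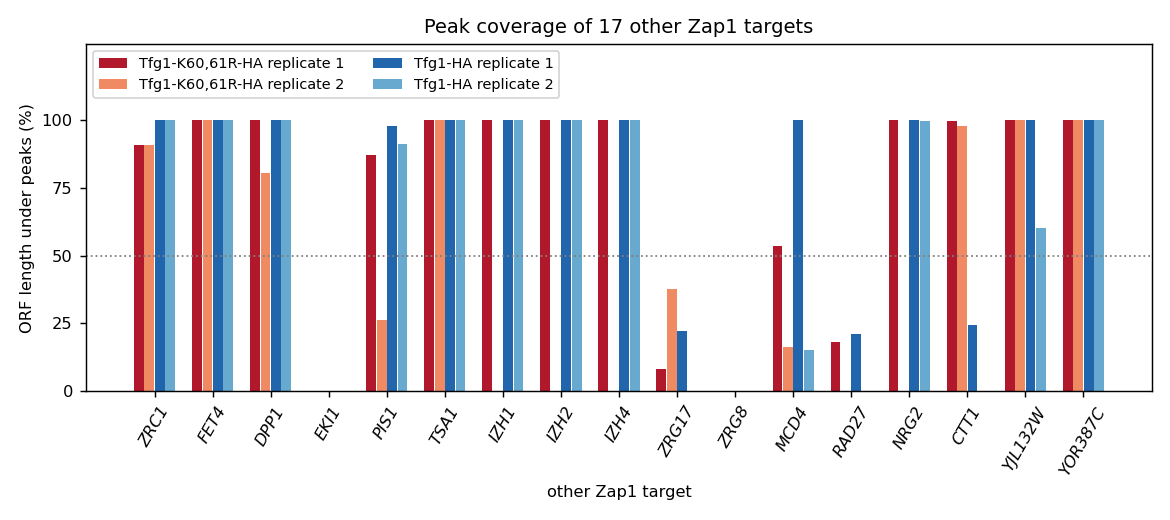
Share of each ORF under peaks (y axis, percent of ORF length) for the 17 other Zap1 targets, 1 bar per list, with the 50% threshold dotted; bars are single libraries, without error. IZH1, IZH2, IZH4 and NRG2 have bars in 3 lists and none in Tfg1-K60,61R-HA replicate 2, and CTT1 is nearly fully covered in both Tfg1-K60,61R-HA libraries but reaches 24.5% and 0% in the Tfg1-HA libraries.

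ADH1 and ADH3, the alcohol dehydrogenase genes turned down in low zinc, were covered over 100% in all 4 lists. The fold of ADH1 was 8.81 and 5.67 in the Tfg1-K60,61R-HA libraries, against 8.63 and 6.74 in the Tfg1-HA libraries. ADH3 had a fold of 2.91 and 1.93 in the Tfg1-K60,61R-HA libraries, against 3.24 and 2.52 in the Tfg1-HA libraries. The genotypes overlapped at both genes. ADH1 and ADH4, which cells use in opposite zinc states, thus both lay under peaks in all 4 lists. Of 3 zinc transport genes not under Zap1, YKE4 was occupied in all 4 lists, COT1 reached a coverage of 12.7% at most, and MSC2 had no covered base.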

How the data were processed

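RNAPII was immunoprecipitated with an antibody to Rpb1, its largest subunit, and input chromatin served as background. The authors trimmed the reads, aligned them with Bowtie2 2.3.5.1 to sacCer3 and called broad peaks with MACS2 2.2.7.1 in each IP library, without pooling replicates. The deposited lists give a fold ratio per peak, and p-values and q-values on a −log10 scale. The 4 input libraries were used here only through these values. The authors' read-based differential binding test could not be run on peak lists, and the depth each library reached cannot be read from them. From the list of Tfg1-K60,61R-HA replicate 1, 894 rows that repeated those of Tfg1-K60,61R-HA replicate 2 were removed from 1992.

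Coverage, fold (mean weighted by overlap) and percentiles over the 6002 ORFs of the R64 annotation, which is the sacCer3 build, were computed in Python 3.11.15 with numpy 2.4.6 and tested on simulated lists. Zinc-responsive elements and alignments were computed from the R64 sequence. Groups and replicate numbers came from the sample labels. The members and gene lists were chosen with earlier results of these data known. The genes named are the 8 members, listed Zap1 targets and other zinc genes, chromosome VII ORFs out to HXK2, adjacent ORFs of the other members, and the 5 ORFs nearest to ZRT1. No test was made between the genotypes. Alternatives were peaks of fold or −log10 q of at least 2, lists of equal length, repeated rows kept, other coverage thresholds, other peak statistics, each list left out, the 2 lists with matching names alone, the other 2 exchanged, and a replicate block.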

Additional observations from a re-analysis of the deposited data

How the results depend on the processing

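Of 131 recomputed values for 11 results, 114 stayed within the spread between replicates. This count is a weak measure of stability. The spread (SD) was 53.3 points for VEL1 and for MNT2, which share a peak but count as separate results, and the replicate block included in it cannot move a mean difference. In 33 of the 131, over 10 of the 11 results, the sign was opposite to that of the reported difference. ZRT1 was the only member whose groups did not overlap, and its difference turned under 2 alternatives, given below. Differences are Tfg1-K60,61R-HA minus Tfg1-HA. With only peaks of fold at least 2, 7 and 4 of the 8 members were occupied in the Tfg1-K60,61R-HA libraries, against 8 and 5 in the Tfg1-HA libraries (a difference of -1 against 0 with all peaks), mean member coverage differed by -12.5 percentage points and the ZRT1 fold percentile by 0.887 points. With only the lists whose label and names match, mean member coverage differed by -2.65 points, against -0.183 with all lists. With the 2 doubted lists exchanged (chosen after seeing the data) it differed by -2.47 points, and the ZRT1 fold percentile by -0.218 points. The ZPS1 fold percentile differed by -6.60 points with only peaks of fold at least 2. With the fold above 1 summed over each peak (chosen after seeing the data), the percentile of ZRT1 was 97.4 and 99.7 in the Tfg1-K60,61R-HA libraries and 98.9 in each Tfg1-HA library, and the difference turned to -0.351 points. With the repeated rows kept, the covered length from VEL1 to ZRT1 differed by 95.5 bp, against -688.5 bp without them. Leaving out 1 library at a time gave -1.51 to 1.14 points for mean member coverage (lowest without Tfg1-K60,61R-HA replicate 1, highest without Tfg1-K60,61R-HA replicate 2), 0.306 to 0.782 points for the ZRT1 fold percentile (in the same order) and -1214.5 to -162.5 bp for the covered length (lowest without Tfg1-HA replicate 2, highest without Tfg1-HA replicate 1).

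A replicate block (the mean of the differences within replicate number) leaves each mean difference as it was, 0.544 points for ZRT1. The labels name no shared batch. Deviations of same-numbered lists correlated at 0.301 over 651 ORFs by fold percentile and 0.102 over 1369 ORFs by coverage, both positive. Whether same-numbered lists were paired was not tested. Peak lists hold no depth, so a gene short of a peak may still carry RNAPII.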
